A study of Mus musculus with 14 samples.

Results

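Read counts are described for 32 genes of protein folding and stress in the endoplasmic reticulum (ER) in mouse CD4+ T cells. The genes were chosen by name, and each had its own row among the 22048 rows of a table of protein-coding genes. All 32 were among the 12343 genes that passed a filter on low counts. The mice were C57BL/6 animals with a YFP reporter of interferon-gamma, with spleens and peripheral lymph nodes as the source of cells.

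A first group of 3 libraries came from CD4+ CD44- CD62L+ cells, called naive, that were sorted without culture. Enriched CD4+ T cells were cultured for 4 days on plate-bound anti-CD3 and anti-CD28 with IL-2, IL-12 and anti-IL4, conditions that favour the Th1 fate. Each culture held 1 µM of SGC0946, which inhibits DOT1L (a histone methyltransferase), or of SGC0649, the control compound that lacks this activity. Cells were then sorted as reporter-positive (YFPpos) or reporter-negative (YFPneg). The SGC0649 cultures gave 2 YFPneg and 3 YFPpos libraries, and the SGC0946 cultures gave 3 of each sort. Every cultured library carried a compound, the ages of the animals are not in the labels, and the starting cells of the cultures were not sorted naive cells. In a comparison with naive cells, the starting population, stimulation, cytokines, time and compound cannot be told apart.

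As background, secreted and membrane proteins enter the ER through the Sec61 channel and are folded there by chaperones such as BiP (Hspa5), by lectins that read glycans and by enzymes that form disulfide bonds. Proteins that stay misfolded are moved back to the cytosol and degraded. Load on the ER is read by the sensors ATF6, IRE1 (Ern1) and PERK (Eif2ak3), and IRE1 splices Xbp1 mRNA into the form that encodes an active transcription factor. Activated T cells make and secrete cytokines. Counts per gene hold no information on Xbp1 splicing, ATF6 cleavage or phosphorylation of the sensors.

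Levels are given as CPM, the counts of a gene relative to a TMM-scaled library total of 1000000. Log2 fold changes, their standard errors (SE) and adjusted p-values come from an edgeR quasi-likelihood test with Benjamini-Hochberg adjustment over 12343 genes, and "rose", "fell" and "called" mean an adjusted p below 0.05. Nothing in the sources used here ties the libraries to separate animals, so p-values measure the spread between libraries, part of which may be technical. Total counts ranged from 14486577 to 31614057 per library. The sort was visible in Ifng, which averaged 33.8 ± 11.8 CPM (SD, n = 2) in YFPneg and 737 ± 169 (SD, n = 3) in YFPpos cells with SGC0649, and 66.8 ± 42.5 and 645 ± 97.3 (SD, n = 3 each) with SGC0946. All 8 CD4 T cell markers examined were detected, with a summed level of 3339 to 5042 CPM, while 7 B cell markers summed to at most 2.67 CPM. Sums reached at most 19.7 CPM for 2 CD8 T cell markers and 11.1 CPM for 8 myeloid markers. They reached at most 7.43 CPM for 5 NK cell and 5.88 CPM for 5 dendritic cell markers. Of the plasma cell markers, Tnfrsf17 was at 0 in every library, and Jchain and Mzb1 averaged at most 0.763 CPM in any group. Sdc1 averaged 0.0389 CPM in naive and 1.71 to 9.07 CPM in cultured groups. Prdm1 averaged 12.4 CPM in naive and 14.8 to 88.9 CPM in cultured groups. The means of Sdc1 and Prdm1 were higher in YFPpos than in YFPneg cells under each compound. The summed level of the 7 plasma cell genes was still 18.9 to 21.9 CPM in naive and 879 to 1190 CPM in cultured libraries. Irf4, a transcription factor, made up most of the sum in cultured cells, with group means of 887 to 1077 CPM against 7.43 CPM in naive cells. The list also holds Derl3, which is 1 of the 32 genes, and its part in the results was not tested. The share of reads left unmapped was 3.14% to 4.62% in YFPneg libraries. It was 7.40% to 8.66% for naive cells and 6.44% to 8.35% for YFPpos cells, apart from YFPpos SGC0946 replicate 2 with 3.61%.

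The promoters are shown first because they carry the sequence by which many of these genes are known to respond to ER stress. The ER stress response element (ERSE) consists of CCAAT, a spacer of 9 bases and CCACG, read on either strand. RefSeq promoters (GRCm38.p6, from 250 bases before to 50 after the start) were given for 26 of the 32 genes. An ERSE was found in 9 of these 26 (34.6%), against 37 of 27025 genes with a promoter in the same set (0.137%). The 9 were Calr, Canx, Creld2, Derl3, Dnajc3, Hsp90b1, Hspa5, Pdia6 and Syvn1. ERSE-II, ATTGG and CCACG separated by 1 base, was found in Dnajb11 and Herpud1, which is 7.69% of the 26 against 0.0444% of all genes. The UPRE core TGACGTGG was found in none of the 26, against 0.714% of all genes. The ERSE and ERSE-II counts over all genes include the genes named here. The 32 were chosen by name for roles in ER folding and stress, so these contrasts are background and not a result of the counts. The windows shown come from genes that rose (Hspa5, Pdia6, Canx), fell (Dnajc3, Syvn1) or were not called (Herpud1) in YFPpos SGC0649 cells against naive cells, written 5′ to 3′ along the gene's strand with the matched letters in capitals. They lie at chr2:34772020-34772048 (+, Hspa5), chr12:17266471-17266529 (+, Pdia6), chr11:50325780-50325838 (-, Canx), chr14:118937807-118937865 (+, Dnajc3), chr19:6046512-6046570 (+, Syvn1) and chr8:94386357-94386407 (+, Herpud1, ERSE-II).
Hspa5: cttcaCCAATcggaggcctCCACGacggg
Pdia6: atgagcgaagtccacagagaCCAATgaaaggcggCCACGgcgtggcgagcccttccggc
Canx: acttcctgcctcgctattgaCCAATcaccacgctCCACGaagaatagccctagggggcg
Dnajc3: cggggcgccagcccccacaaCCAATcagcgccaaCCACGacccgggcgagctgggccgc
Syvn1: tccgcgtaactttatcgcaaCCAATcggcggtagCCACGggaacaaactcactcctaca
Herpud1: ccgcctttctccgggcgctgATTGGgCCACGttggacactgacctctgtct

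The 32 genes together took 0.470% ± 0.00706 of all counts in naive libraries (SD, n = 3). Their share was 0.728% ± 0.0226 (SD, n = 2) in YFPneg and 0.895% ± 0.00715 (SD, n = 3) in YFPpos cells with SGC0649. With SGC0946 it was 0.724% ± 0.0222 and 0.942% ± 0.00312 (SD, n = 3 each). The ranges over libraries did not overlap between naive, YFPneg and YFPpos cells under either compound. The YFPpos SGC0946 library with few unmapped reads had a share of 0.946%, and replicates 1 and 3 of that sort had 0.940% and 0.942%.

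**Figure D1:**
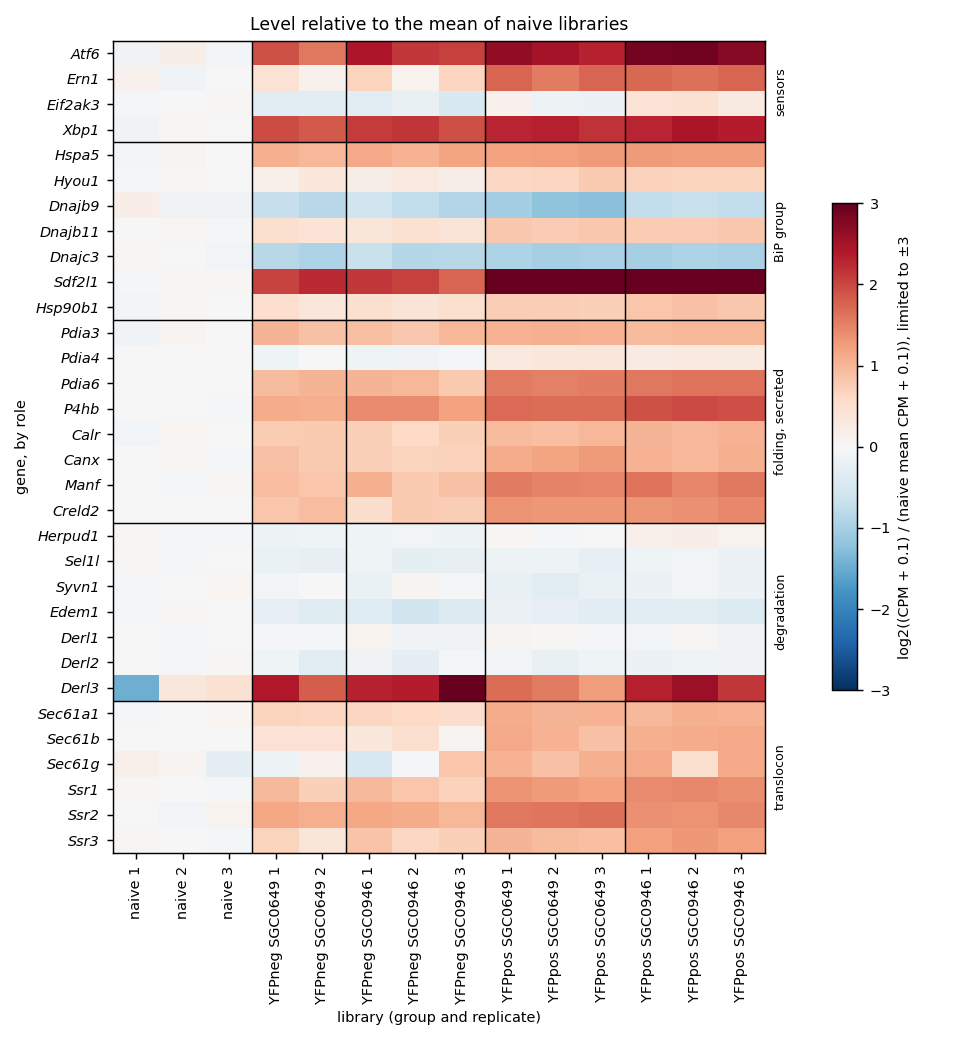
Log2 level of each of the 32 genes in each of the 14 libraries relative to the naive mean, with genes in rows ordered by role, libraries in columns by group, 0.1 CPM added to each level and colours limited to 3 in either direction. Most rows of sensors, chaperones, isomerases and translocon genes move to higher values from naive through YFPneg to YFPpos libraries, while Dnajb9, Dnajc3 and most degradation genes lie at or below the naive level.

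Compared with naive cells, YFPpos cells with SGC0649 had higher RNA of 23 of the 32 genes and lower RNA of 5. Over all genes tested, 79.8% were called in that comparison, 42.6% higher and 37.3% lower. The median log2 fold change of the 32 was 1.02, against 0.09 over all genes. In YFPneg cells with SGC0649, 20 rose and 6 fell against naive cells, where 69.0% of all genes were called, 36.4% higher and 32.6% lower. Their median was 0.49, against 0.03. Both comparisons use the same 3 naive libraries. Most of the 32 genes thus stood above naive cells in both sorts, and the median was larger in the reporter-positive sort.

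Among the sensors and Xbp1, 3 of 4 rose in YFPpos cells against naive cells, and Eif2ak3 was not called. Atf6, the sensor that is itself a transcription factor once cleaved, stood at 12.4, 15.0 and 12.6 CPM in naive libraries. It measured 50.7 and 40.5 CPM in YFPneg and 85.5, 75.9 and 67.1 CPM in YFPpos libraries with SGC0649, and 72.7, 58.3 and 55.4 CPM and then 98.9, 99.8 and 89.4 CPM with SGC0946. All cultured libraries lay above all naive ones, and within each compound the YFPpos libraries lay above the YFPneg ones. The log2 fold change of Atf6 in YFPpos SGC0649 cells against naive cells was 2.51 (SE 0.129, adjusted p = 6.55e-12). Xbp1, the target of IRE1 splicing, stood at 49.1, 54.9 and 53.2 CPM in naive, 204 and 189 CPM in YFPneg SGC0649, 258, 266 and 237 CPM in YFPpos SGC0649, 224, 233 and 201 CPM in YFPneg SGC0946 and 255, 288 and 269 CPM in YFPpos SGC0946 libraries. Its levels followed the same order without overlap, with a rise of 2.27 against naive cells in YFPpos SGC0649 (SE 0.0745, adjusted p = 1.42e-14) and 1.90 in YFPneg SGC0649 (SE 0.0796, adjusted p = 8.61e-13).

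Ern1, which encodes IRE1, separated the sorts more than it separated YFPneg from naive cells. Its levels were 18, 15.3 and 16.3 CPM in naive, 22.5 and 18.2 CPM in YFPneg SGC0649, 55.6, 49.1 and 55.7 CPM in YFPpos SGC0649, 26.6, 17.8 and 25.9 CPM in YFPneg SGC0946 and 54.5, 52.1 and 55.9 CPM in YFPpos SGC0946 libraries. The rise against naive cells was 1.69 in YFPpos SGC0649 (SE 0.129, adjusted p = 1.55e-09), and the value in YFPneg SGC0649, 0.30, was not called (SE 0.147, adjusted p = 0.0819; 0.0367 to 0.529 over its alternatives, and 0.0417 without YFPneg SGC0649 replicate 2). Eif2ak3, which encodes PERK, took another pattern. It stood at 54.8, 56.0 and 58.1 CPM in naive, 45.2 and 44.2 CPM in YFPneg SGC0649, 61.4, 50.6 and 49.6 CPM in YFPpos SGC0649, 44.7, 48.3 and 41.1 CPM in YFPneg SGC0946 and 74.4, 77.0 and 67.7 CPM in YFPpos SGC0946 libraries. YFPneg cells with SGC0649 were below naive cells by a log2 fold change of -0.33 (SE 0.10, adjusted p = 0.00718), YFPpos SGC0649 libraries overlapped the naive ones, and the YFPpos SGC0946 libraries were the highest of all.

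**Figure D2:**
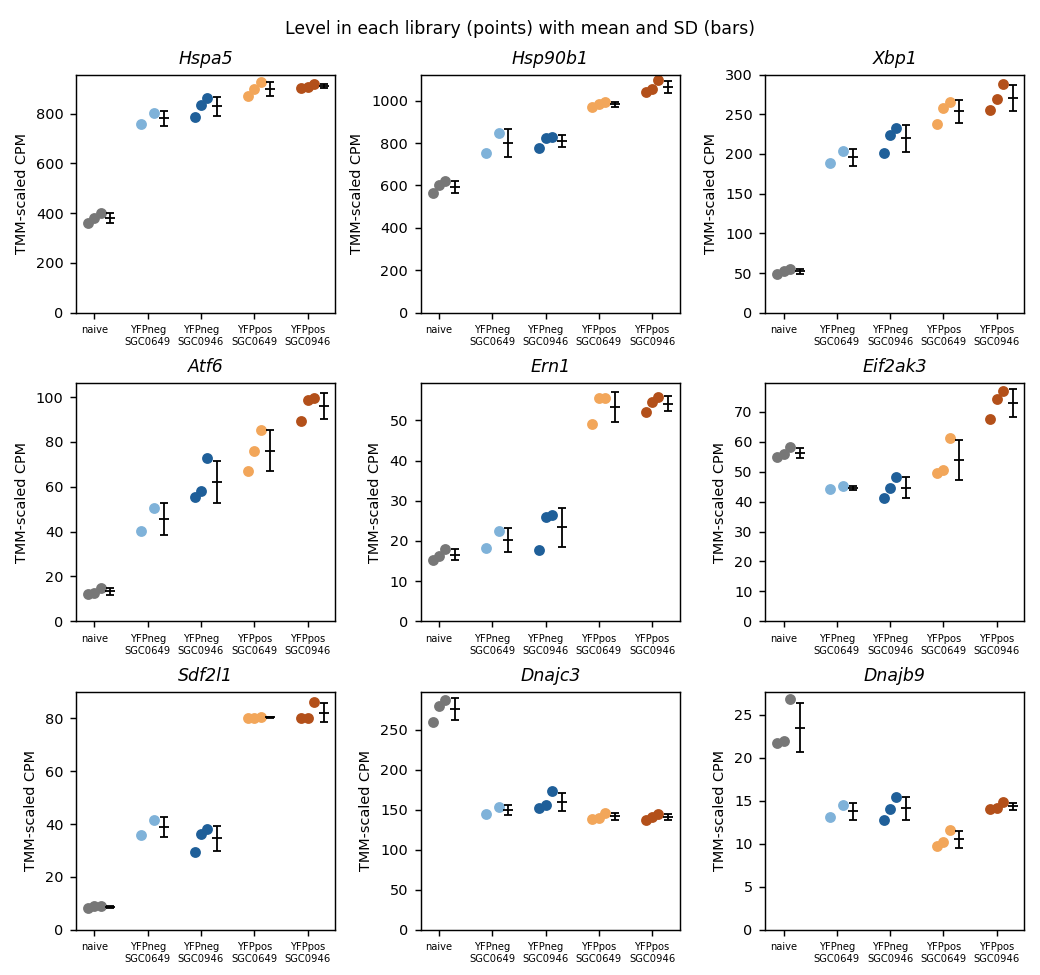
Level in CPM of selected genes in each library, with 1 point per library, sorted by level, and the mean ± SD beside the points, for naive cells and the 4 cultured groups. Sdf2l1 and Ern1 separate YFPpos from YFPneg libraries under both compounds, and Dnajb9 and Dnajc3 lie below naive cells in all cultured groups.

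Of BiP, its cochaperones and Hsp90b1, 5 of 7 rose and 2 fell against naive cells in both sorts with SGC0649. Hspa5, or BiP, the main Hsp70 of the ER, stood at 362, 399.8 and 379.6 CPM in naive, 802 and 759 CPM in YFPneg SGC0649, 871, 899 and 928 CPM in YFPpos SGC0649, 835, 787 and 863 CPM in YFPneg SGC0946 and 917, 901 and 908 CPM in YFPpos SGC0946 libraries. It rose by 1.24 in YFPpos SGC0649 (SE 0.0540, adjusted p = 6.73e-13) and by 1.04 in YFPneg SGC0649 (SE 0.0587, adjusted p = 5.79e-11), so most of its difference from naive cells was present in both sorts. Hsp90b1, the Hsp90 of the ER, stood at 563, 619.5 and 601 CPM in naive, 846 and 753 CPM in YFPneg SGC0649, 994, 985 and 971 CPM in YFPpos SGC0649, 830.0, 777 and 824 CPM in YFPneg SGC0946 and 1056, 1096 and 1041 CPM in YFPpos SGC0946 libraries. Its rise was 0.73 in YFPpos and 0.43 in YFPneg cells with SGC0649 (SE 0.0554 and 0.0612, adjusted p = 1.54e-09 and 8.26e-06). Hsp90b1 shares 9.75% of its 50-base exon stretches with other genes and overlaps exons of 2 genes on its strand, so its counts are less certain than those of Hspa5. Dnajb11, a BiP cochaperone, and Hyou1, the nucleotide exchange factor of BiP, rose by 0.79 and 0.68 in YFPpos SGC0649 cells. In YFPneg SGC0649 cells Hyou1 rose by 0.24 (adjusted p = 0.00537; 0.000813 to 0.106 over its alternatives), and without YFPneg SGC0649 replicate 2 the value was 0.15 and was not called (adjusted p = 0.106).

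Sdf2l1, a partner of BiP and its J-proteins, had the largest rise of the 32 against naive cells in YFPpos SGC0649 cells. It stood at 8.33, 8.97 and 8.90 CPM in naive, 36.1 and 41.4 CPM in YFPneg SGC0649, 80.5, 80.3 and 80.3 CPM in YFPpos SGC0649, 38.3, 36.3 and 29.4 CPM in YFPneg SGC0946 and 80.3, 80.0 and 86.2 CPM in YFPpos SGC0946 libraries. The log2 fold change was 3.20 in YFPpos SGC0649 (SE 0.102, adjusted p = 1.02e-14) and 2.15 in YFPneg SGC0649 cells (SE 0.110, adjusted p = 1.5e-11). The 3 levels, naive, YFPneg and YFPpos, were separate under both compounds.

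The J-proteins Dnajb9 and Dnajc3 went the other way. Dnajb9, or ERdj4, is a BiP cochaperone that acts on IRE1 and in degradation, and Dnajc3, or p58IPK, is an inhibitor of PERK and a cochaperone. Dnajb9 stood at 26.9, 22.0 and 21.8 CPM in naive, 14.5 and 13.1 CPM in YFPneg SGC0649, 11.6, 10.2 and 9.78 CPM in YFPpos SGC0649, 15.5, 14 and 12.8 CPM in YFPneg SGC0946 and 14.1, 14.9 and 14.1 CPM in YFPpos SGC0946 libraries. Dnajc3 stood at 288, 279.7 and 260.0 CPM in naive, 154 and 145 CPM in YFPneg SGC0649, 146, 139 and 140.2 CPM in YFPpos SGC0649, 173, 152 and 155 CPM in YFPneg SGC0946 and 138, 145 and 141 CPM in YFPpos SGC0946 libraries. Every cultured library was below every naive one for both genes. In YFPpos SGC0649 cells Dnajb9 fell by 1.16 on the log2 scale (SE 0.123, adjusted p = 1.37e-07) and Dnajc3 fell by 0.96 (SE 0.0605, adjusted p = 1.08e-10). In YFPneg SGC0649 cells the changes were -0.77 (SE 0.138, adjusted p = 9.78e-05) and -0.88 (SE 0.0689, adjusted p = 4.24e-09).

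All 8 disulfide isomerases, lectins and secreted stress proteins rose in YFPpos SGC0649 cells against naive cells, by 0.31 for Pdia4 to 1.69 for P4hb, and 7 of the 8 rose in YFPneg SGC0649 cells. P4hb, a protein disulfide isomerase, stood at 204, 205 and 199 CPM in naive, 441 and 429.6 CPM in YFPneg SGC0649, 664, 649 and 647 CPM in YFPpos SGC0649, 544, 543 and 470.0 CPM in YFPneg SGC0946 and 762, 796 and 774 CPM in YFPpos SGC0946 libraries. The groups formed the order naive, YFPneg and YFPpos without overlap within each compound. Pdia6, another isomerase, rose by 1.54, the secreted proteins Manf and Creld2 by 1.5 and 1.32, and the lectins Canx and Calr by 1.2 and 0.95. Pdia4 was the gene of this set that was not called in YFPneg SGC0649 cells, at -0.05 (adjusted p = 0.494). Pdia4 and Manf each overlap exons of 1 other gene on the same strand.

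Of the 7 degradation genes, 1 rose and 3 fell in YFPpos SGC0649 cells, with a median of -0.14 against 0.09 over all genes. The counts in YFPneg SGC0649 cells were the same. Over all genes, 42.6% rose and 37.3% fell in YFPpos cells, and 36.4% rose and 32.6% fell in YFPneg cells. The 3 of 7 that fell are thus near the shares of all genes. Edem1, a lectin that hands misfolded glycoproteins to degradation, stood at 451, 475 and 467 CPM in naive, 393 and 362 CPM in YFPneg SGC0649, 413, 389 and 368 CPM in YFPpos SGC0649, 353, 315 and 350.0 CPM in YFPneg SGC0946 and 366, 367 and 351 CPM in YFPpos SGC0946 libraries. All cultured libraries were below the naive ones, by -0.25 in YFPpos (SE 0.0594, adjusted p = 0.00093) and -0.30 in YFPneg SGC0649 cells (SE 0.0670, adjusted p = 0.000754). Sel1l, the adaptor of the ubiquitin ligase Hrd1, fell in both sorts, by 0.18 and 0.21. Syvn1, which encodes Hrd1, fell in YFPpos cells, by 0.25 (SE 0.0732, adjusted p = 0.00552). Derl2 fell in YFPneg cells, by 0.24 (adjusted p = 0.0203; 0.00751 to 0.24 over its alternatives, 0.0615 without naive replicate 3, and 0.24 with a value of -0.14 without YFPneg SGC0649 replicate 2). Sel1l in YFPneg cells had an adjusted p of 0.00753 (0.00168 to 0.054 over its alternatives, and 0.0508 without YFPneg SGC0649 replicate 2). With library totals alone, Sel1l was called in neither sort (adjusted p = 0.0818 in YFPpos and 0.054 in YFPneg cells).

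Derl3 was the degradation gene that rose against naive cells, at very low levels. It stood at 0.00, 0.249 and 0.284 CPM in naive, 1.37 and 0.874 CPM in YFPneg SGC0649, 0.781, 0.717 and 0.562 CPM in YFPpos SGC0649, 1.28, 1.31 and 2.58 CPM in YFPneg SGC0946 and 1.29, 1.55 and 1.10 CPM in YFPpos SGC0946 libraries. Its counts ran from 0 to 39 per library, and its call in YFPpos SGC0649 cells (log2 fold change 1.91, SE 0.655, adjusted p = 0.0133; 0.00532 to 0.0525 over its alternatives) was lost without naive replicate 1 (0.0525). In YFPneg SGC0649 cells the log2 fold change was 2.61 (SE 0.677, adjusted p = 0.00252). Herpud1 and Derl1 were called in neither sort against naive cells.

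All 6 translocon genes rose in YFPpos SGC0649 cells against naive cells, by 0.96 for Ssr3 to 1.61 for Ssr2, and 5 of the 6 rose in YFPneg SGC0649 cells. Sec61a1, the pore of the channel, rose by 1.06 and 0.66. Ssr2, a subunit of the translocon-associated complex, stood at 52.4, 49.8 and 56.7 CPM in naive, 119 and 112 CPM in YFPneg SGC0649, 159, 162 and 166 CPM in YFPpos SGC0649, 118, 114 and 105 CPM in YFPneg SGC0946 and 137, 135 and 144 CPM in YFPpos SGC0946 libraries. Its levels kept the order of the groups without overlap within each compound. Ssr3, of the same complex, stood at 184, 181 and 177 CPM in naive, 288 and 234 CPM in YFPneg SGC0649, 366, 350.4 and 336 CPM in YFPpos SGC0649, 329, 278 and 296 CPM in YFPneg SGC0946 and 425, 445 and 426 CPM in YFPpos SGC0946 libraries. The small channel subunits Sec61b and Sec61g share 17.4% and 14.8% of their 50-base exon stretches with other genes, and Ssr2 shares 11.0%, so these counts are uncertain.

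With SGC0649, 20 of the 32 genes had all naive libraries below all YFPneg libraries and these below all YFPpos libraries, an order held by 22.6% of the genes tested. With SGC0946 it was 18 of 32, against 18.6% of genes. The opposite order was held by Dnajb9 with SGC0649 (19.7% of genes) and by Dnajc3 with SGC0946 (17.7%). The genes with an ERSE did not all take the same direction. Of the 9, 7 rose and 2, Dnajc3 and Syvn1, fell in YFPpos SGC0649 cells against naive cells, with a median of 1.2. Of the 17 with a promoter and no ERSE, 11 rose, 3 fell and 3 were not called, with a median of 0.96. The 6 without a promoter entry had a median of 1.28. Between the sorts the ERSE genes had a median of 0.20 against 0.36 for the 17 with SGC0649, and of 0.34 against 0.37 with SGC0946. The 6 without a promoter entry had medians of 0.46 and 0.44 there, and these differences were not tested. Over all genes, 42.6% rose and 37.3% fell against naive cells. Compared per kilobase of exon, Calr was the highest of the 32 in naive cells at 162 CPM per kilobase, followed by Hsp90b1 at 147 and Pdia3 at 143, while Derl3 at 0.0891 and Sec61g at 1.44 were lowest in naive cells. Calr, Pdia3, Hsp90b1, Hspa5 and P4hb held the 5 highest levels per kilobase in each cultured group.

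Between the sorts of 1 compound, the question was how cells that express the interferon-gamma reporter differ from those that do not. With SGC0649, 22 of the 32 genes were higher in YFPpos cells, 2 were lower and 8 were not called. Over all genes, 45.2% were called, 23.9% higher and 21.3% lower. With SGC0946, 23 were higher, 1 was lower and 8 were not called, where 54.7% of all genes were called, 26.9% higher and 27.8% lower. The medians of the 32 were 0.36 and 0.37, and those of all genes 0.04 and 0.01. The same 22 genes were called higher under both compounds, and Herpud1 was called higher with SGC0946 but not with SGC0649, where the difference between these gaps was not called (0.13, adjusted p = 0.541). Pdia3, Sel1l, Edem1, Derl1, Derl2 and Derl3 were called under neither. The share of unmapped reads also differed between the sorts. Reads that mapped to more than 1 place made up 23.98% to 25.65% in YFPpos and 21.51% to 22.25% in YFPneg libraries. The part of either share in these differences was not tested. Without YFPpos SGC0946 replicate 2, the library of that sort with 3.61% unmapped reads, 22 genes were higher and 1 lower with SGC0946. That fit cannot tell sort and unmapped reads apart. Replicates 1 and 3 of that sort had 7.58% and 8.12% unmapped reads, against 3.14% to 4.62% in YFPneg SGC0946 libraries. In bulk samples, more cells that express a gene and more RNA of it per cell cannot be told apart.

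**Figure D3:**
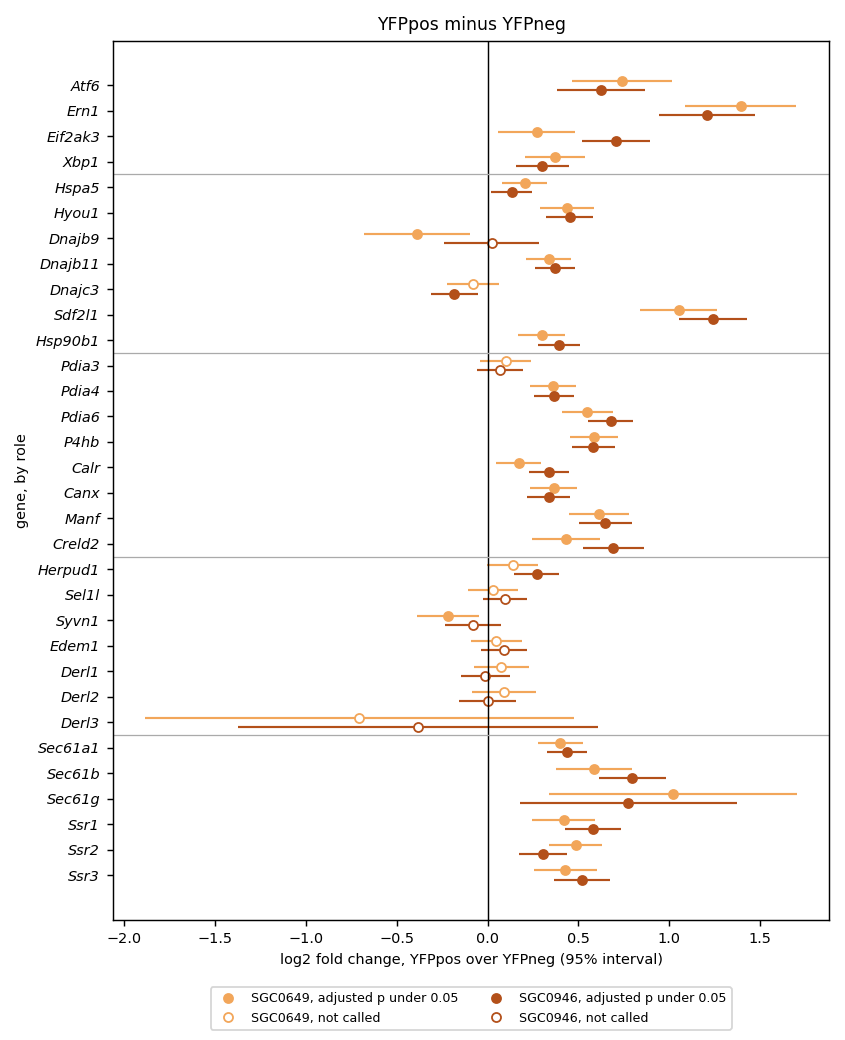
Log2 fold change of YFPpos over YFPneg cells for each of the 32 genes with its 95% interval, by compound. Filled points have an adjusted p below 0.05. Values lie above 0 for all 4 sensor and Xbp1 genes and all 6 translocon genes under both compounds, and near 0 for most degradation genes.

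The 4 genes of the sensor set were higher in YFPpos cells under both compounds. Ern1 had the largest difference with SGC0649, 1.39 (SE 0.145, adjusted p = 9.07e-07), and with SGC0946 it was 1.21 (SE 0.125, adjusted p = 4.51e-07). Its group means were 20.3 ± 2.98 CPM (SD, n = 2) in YFPneg and 53.5 ± 3.75 (SD, n = 3) in YFPpos cells with SGC0649. Atf6 differed by 0.74 and 0.63, and Xbp1 by 0.37 and 0.30. Eif2ak3 differed by 0.27 with SGC0649 (SE 0.0997, adjusted p = 0.0360; 0.00757 to 0.173 over its alternatives) and by 0.71 with SGC0946 (SE 0.0886, adjusted p = 4.13e-06). The Eif2ak3 call with SGC0649 was lost without YFPneg SGC0649 replicate 1 (0.0972) or replicate 2 (0.133) and without YFPpos SGC0649 replicate 1 (0.173, with a value of 0.16).

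Of BiP, its cochaperones and Hsp90b1, 5 of 7 were higher in YFPpos cells under each compound. Sdf2l1 again led, at 1.05 with SGC0649 (SE 0.101, adjusted p = 3.54e-07) and 1.24 with SGC0946 (SE 0.0892, adjusted p = 5.98e-09). Hsp90b1 differed by 0.30 and 0.39. Hspa5 differed by only 0.20 with SGC0649 (SE 0.0595, adjusted p = 0.00997; 0.000498 to 0.0857 over its alternatives) and 0.13 with SGC0946 (SE 0.0529, adjusted p = 0.0419; 0.000657 to 0.148). The first Hspa5 call was lost without YFPneg SGC0649 replicate 2 (0.0857). The second was lost without YFPneg SGC0946 replicate 1 (0.0846) or 2 (0.148) and without YFPpos SGC0946 replicate 1 (0.104), 2 (0.0668) or 3 (0.0877). The YFPpos libraries lay above all YFPneg libraries under both compounds, an order held by 35% of all genes with SGC0649 and 30.4% with SGC0946.

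The lower calls were small. Dnajb9 was lower in YFPpos cells with SGC0649 (-0.39, SE 0.138, adjusted p = 0.0303; 0.0219 to 0.176 over its alternatives), and with SGC0946 its value was 0.02 (SE 0.123, adjusted p = 0.894). With a replicate block its value with SGC0649 was -0.34 and was not called (adjusted p = 0.1). Without YFPneg SGC0649 replicate 1 its adjusted p was 0.176, without YFPpos SGC0649 replicate 2 it was 0.0819 and without replicate 3 it was 0.0848. Dnajc3 was lower in YFPpos cells with SGC0946 (-0.18, SE 0.0605, adjusted p = 0.0173; 0.00844 to 0.0851 over its alternatives), a call lost without YFPneg SGC0946 replicate 1 (0.0851) or YFPpos SGC0946 replicate 1 (0.0686) and under DESeq2 size factors (0.0809), library totals alone (0.0636) and the DESeq2 test (0.0693). Syvn1 stood at 79.7, 81.0 and 85.6 CPM in naive, 78.0 and 82.9 CPM in YFPneg SGC0649, 69.9, 66.0 and 71.9 CPM in YFPpos SGC0649, 71.2, 86.9 and 78.9 CPM in YFPneg SGC0946 and 73.1, 78.1 and 72.6 CPM in YFPpos SGC0946 libraries. Its sorts were apart with SGC0649 (-0.22, SE 0.0812, adjusted p = 0.0387; 0.0225 to 0.209 over its alternatives) and overlapped with SGC0946. The Syvn1 call was lost without YFPneg SGC0649 replicate 1 (0.0602) or 2 (0.209) or YFPpos SGC0649 replicate 1 (0.0619) or 2 (0.129). With SGC0649, both lower calls were therefore absent without YFPneg SGC0649 replicate 1 or YFPpos SGC0649 replicate 2, and 1 was left without each of the other 3 libraries.

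Of the isomerases, lectins and secreted proteins, 7 of 8 were higher in YFPpos cells under both compounds. P4hb differed by 0.59 and 0.58, Manf by 0.61 and 0.65, Pdia6 by 0.55 and 0.68, Creld2 by 0.43 and 0.69 and Canx by 0.36 and 0.34. Pdia3 was the gene not called, at 0.10 with a 95% interval of -0.04 to 0.24 with SGC0649 and 0.07 with an interval of -0.06 to 0.19 with SGC0946. Calr differed by 0.17 with SGC0649 (adjusted p = 0.0241; 0.00277 to 0.119 over its alternatives, and 0.0615 with a replicate block) and by 0.34 with SGC0946. Its call with SGC0649 was lost without YFPneg SGC0649 replicate 1 (0.0992) or 2 (0.0602) and without YFPpos SGC0649 replicate 3 (0.102).

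All 6 translocon genes were higher in YFPpos cells under both compounds, with medians of 0.46 and 0.55. Sec61b, a small subunit of the channel, stood at 38.5, 38.6 and 39.5 CPM in naive, 52.4 and 52.3 CPM in YFPneg SGC0649, 85.2, 79.7 and 71.0 CPM in YFPpos SGC0649, 48.8, 54.2 and 41.1 CPM in YFPneg SGC0946 and 81.9, 83.6 and 85.2 CPM in YFPpos SGC0946 libraries. It differed by 0.59 and 0.80 between the sorts. Sec61g, the other small subunit, stood at 3.96, 3.74 and 2.95 CPM in naive, 3.20 and 3.91 CPM in YFPneg SGC0649, 7.46, 6.64 and 7.53 CPM in YFPpos SGC0649, 2.51, 3.43 and 6.42 CPM in YFPneg SGC0946 and 7.91, 5.01 and 7.95 CPM in YFPpos SGC0946 libraries. Its difference was 1.02 with SGC0649 (SE 0.323, adjusted p = 0.0162; 0.00417 to 0.114 over its alternatives) and 0.77 with SGC0946 (SE 0.283, adjusted p = 0.0285; 0.000425 to 0.135), where 1 YFPneg library was above 1 YFPpos library. The Sec61g calls were lost without YFPneg SGC0649 replicate 1 (0.114), without YFPneg SGC0946 replicate 1 (0.135, with a value of 0.50) or 2 (0.0876) and without YFPpos SGC0946 replicate 1 (0.0984) or 3 (0.107). Without YFPneg SGC0946 replicate 3 the value was 1.24 (adjusted p = 0.000425).

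Of the 7 degradation genes, none was higher with SGC0649 by edgeR, at an unadjusted p under 0.05 or by DESeq2, and Syvn1 was lower. With SGC0946, Herpud1, a membrane protein of the degradation complex, was higher by 0.27 (SE 0.0586, adjusted p = 0.000888) and the other 6 were not called. Herpud1 stood at 84.4, 79.0 and 77.9 CPM in naive, 72.7 and 73.5 CPM in YFPneg SGC0649, 83.8, 78.0 and 79.4 CPM in YFPpos SGC0649, 73.8, 76.1 and 72.9 CPM in YFPneg SGC0946 and 90, 92.4 and 86.6 CPM in YFPpos SGC0946 libraries. The sorts did not overlap under either compound, and with SGC0649 the difference of 0.14 was not called (adjusted p = 0.0984).

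The compounds were compared within each sort at the same concentration and time, which asks how the DOT1L inhibitor differs from its inactive control. In YFPpos cells, 5 of the 32 genes were higher with SGC0946 and 2 were lower, where 27.7% of all genes were called, 12.1% higher and 15.7% lower. The other 25 were not called, and the median was 0.06, against -0.04 over all genes. In YFPneg cells 2 were higher and none was lower, where 8.63% of all genes were called, 4.99% higher and 3.64% lower. Of the 32 genes, 6 had an unadjusted p under 0.05 there by edgeR, and DESeq2 also called none lower. The share of all genes at that unadjusted threshold is not given here, so this count cannot be set against it. The median was -0.00, against 0.01. In both sorts, the number of the 32 that were higher with SGC0946 lay near the share of all genes.

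**Figure D4:**
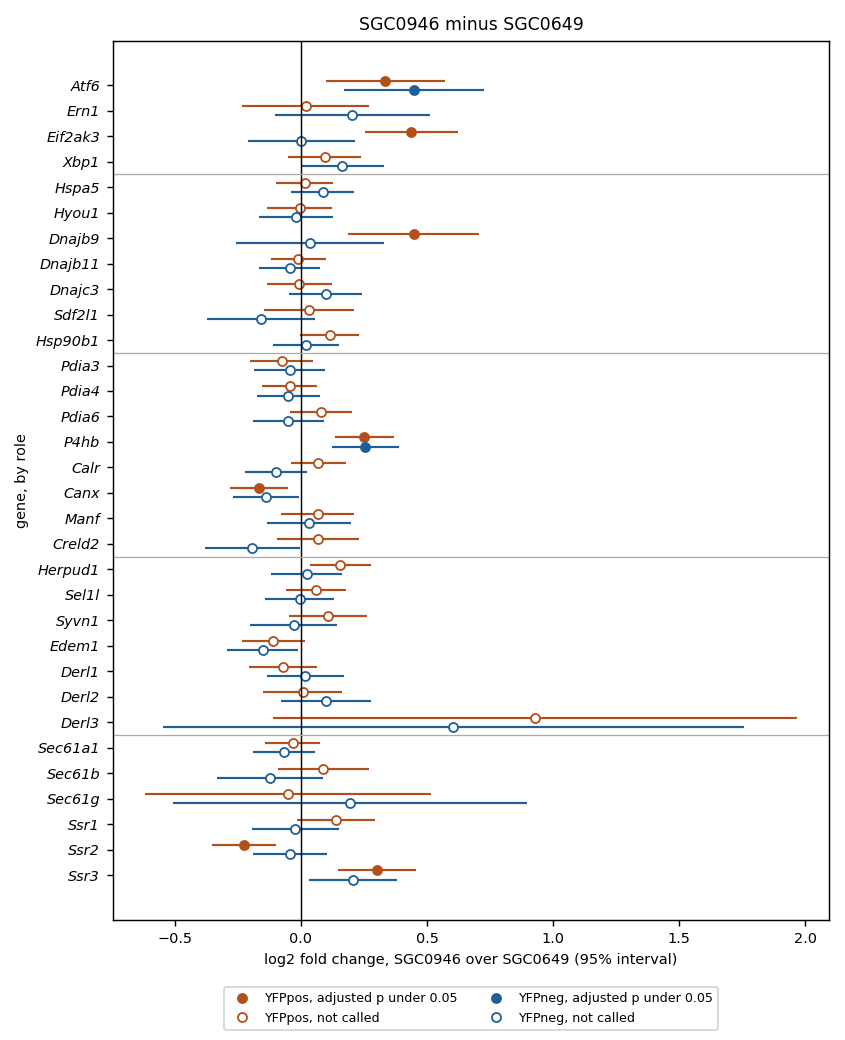
Log2 fold change of SGC0946 over SGC0649 for each of the 32 genes with its 95% interval, in YFPpos and in YFPneg cells. Filled points have an adjusted p below 0.05. The 5 higher and 2 lower genes in YFPpos cells and the 2 higher genes in YFPneg cells differ by less than 0.5, and most intervals include 0.

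In YFPpos cells the higher genes were Dnajb9 (0.45, SE 0.123, adjusted p = 0.0125), Eif2ak3 (0.44, SE 0.0868, adjusted p = 0.00157), Atf6 (0.33, SE 0.112, adjusted p = 0.0346), Ssr3 (0.30, SE 0.0727, adjusted p = 0.00588) and P4hb (0.25, SE 0.0555, adjusted p = 0.00332). All YFPpos libraries with SGC0946 lay above all those with SGC0649 for these 5 genes. This held for 11 of the 32 genes and for 24.1% of all genes tested, and the opposite order held for 33.1% of all genes. Dnajb9 in YFPpos cells was thus less far below naive cells with SGC0946 than with SGC0649. The lower genes were Ssr2 (-0.23, SE 0.0607, adjusted p = 0.0112) and Canx (-0.17, SE 0.0550, adjusted p = 0.0335). Canx, the membrane lectin calnexin, stood at 278, 295 and 272 CPM in naive, 519.8 and 483 CPM in YFPneg SGC0649, 610.3, 638 and 688 CPM in YFPpos SGC0649, 465, 448 and 454 CPM in YFPneg SGC0946 and 581, 559 and 585 CPM in YFPpos SGC0946 libraries.

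The counts depended on which libraries entered the fit and on the scaling. With DESeq2 size factors over all 14 libraries, Canx, Hsp90b1 and Herpud1 were at -0.12, 0.16 and 0.20. Their values with only the libraries compared were the same to 2 decimals. The part of the scaling in the counts that follow was not tested. With only the libraries compared, 11 of the 32 were higher and 1 lower, and 2584 of all genes were higher against 1490 in the fit over all libraries. Without YFPpos SGC0649 replicate 2, replicate 3 or YFPpos SGC0946 replicate 2, 3 genes were higher in place of 5. The Dnajb9 call was then lost (0.0530, 0.0680 and 0.0532; 0.00195 to 0.068 over its alternatives), as was that of Atf6 (0.0931, 0.169 and 0.115; 0.0119 to 0.169 over its alternatives). Leaving out YFPpos SGC0946 replicate 1 gave 0.102 for Atf6, which was not called either. Canx lost its call in 10 of its 12 alternatives, with 0.0157 to 0.184 over them. These were the fits without YFPpos SGC0649 replicates 2 (0.0748) or 3 (0.184) and YFPpos SGC0946 replicates 1 (0.0751), 2 (0.129) or 3 (0.0593). The others were DESeq2 size factors (0.119), library totals alone (0.066), no filter (0.108), the DESeq2 test (0.0754) and only the libraries compared (0.0826). For Ssr2, leaving out YFPpos SGC0946 replicate 2 ended the call (0.0594, the highest of its alternatives, which began at 0.00507). Eif2ak3, Ssr3 and P4hb kept their calls in YFPpos cells under every alternative run.

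Among the genes described by library, Hspa5, Xbp1, Ern1, Sdf2l1 and Hsp90b1 were not called between the compounds in YFPpos cells, unlike the sensors Atf6 and Eif2ak3. The difference was 0.01 for Hspa5 (95% interval -0.10 to 0.13), 0.09 for Xbp1 (-0.05 to 0.24), 0.02 for Ern1 (-0.23 to 0.27) and 0.03 for Sdf2l1 (-0.15 to 0.21). For Hsp90b1 it was 0.11 (adjusted p = 0.134; 0.0174 to 0.336 over its alternatives), and it was called with DESeq2 size factors (0.0483), by DESeq2 (0.0176) and with only the libraries compared (0.0174). Herpud1 was not called at 0.16 (adjusted p = 0.0534; 0.00593 to 0.185 over its alternatives, and 0.0417 without YFPpos SGC0649 replicate 1). In YFPneg cells the higher genes were Atf6 (0.45, SE 0.131, adjusted p = 0.0431; 0.0189 to 0.3 over its alternatives) and P4hb (0.26, SE 0.0628, adjusted p = 0.0207; 0.00159 to 0.207). Atf6 was not called without YFPneg SGC0649 replicate 2 (0.30, adjusted p = 0.3) or YFPneg SGC0946 replicate 1 (adjusted p = 0.116). P4hb was not called without YFPneg SGC0649 replicate 1 (0.0558) or 2 (0.116) or YFPneg SGC0946 replicate 1 (0.0507). Without YFPneg SGC0649 replicate 2 or YFPneg SGC0946 replicate 1, none of the 32 was called in YFPneg cells.

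Whether the gap between the sorts differed between the compounds was tested as an interaction, and none of the 32 genes was called by edgeR. Over all genes, 1.15% were called, 0.259% with a larger and 0.891% with a smaller value under SGC0946. The median interaction value of the 32 was 0.04, against -0.04 over all genes. The share of all genes with an unadjusted p under 0.05 is not given here. Of the 32, 4 genes were under that threshold. The largest difference among them was that of Eif2ak3, at 0.44 (95% interval 0.16 to 0.72, adjusted p = 0.139; 0.029 to 0.326 over its alternatives). DESeq2 called Eif2ak3 alone of the 32 (adjusted p = 0.046), as did edgeR without YFPpos SGC0649 replicate 1 (0.029). The others were Creld2, Dnajb9 and Calr, at 0.26, 0.41 and 0.17.

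Other genes of the same pathways were read from lists of related genes. Beside their counts stand the shares of all genes called, 42.6% higher and 37.3% lower for YFPpos SGC0649 against naive cells, 23.9% and 21.3% between the sorts with SGC0649, and 12.1% and 15.7% for SGC0946 against SGC0649 in YFPpos cells. In the PERK and ATF4 branch, 7 of 11 genes tested rose and 2 fell in YFPpos SGC0649 cells against naive cells. Atf4, the transcription factor of that branch, rose by 1.23 (SE 0.0557, adjusted p = 1.19e-12), from 173 ± 1.82 to 404 ± 20.7 CPM (SD, n = 3 each), and Sesn2 rose by 2.77. Between the sorts with SGC0649, 6 were higher and 1 lower, with Atf4 at 0.57 and Trib3 at 0.74. With SGC0946 in YFPpos cells, 2 of the 11, Sesn2 and Eif2s1, were lower, at -0.50 and -0.26.

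The oligosaccharyltransferase and glycan-trimming genes, which attach and trim glycans on entering proteins, gave 15 of 20 higher and 2 lower against naive cells, and 13 higher between the sorts with SGC0649. Examples were the subunits Rpn1 and Stt3a, higher by 1.25 and 1.24 against naive cells and by 0.66 and 0.46 between the sorts. In YFPpos cells with SGC0946, 1 of the 20 was higher and 4 were lower, including Stt3b at -0.44 (SE 0.0699, adjusted p = 0.000271). The other translocon, signal recognition and signal peptidase genes gave 12 of 22 higher and 4 lower against naive cells, and 13 higher and 1 lower between the sorts, led by the signal peptidase subunit Spcs1 at 0.53. The other folding oxidases, isomerases and related genes gave 16 of 26 higher and 5 lower, with Prdx4 at 2.61 and the oxidase Ero1l at 1.95. Ero1l was also higher in YFPpos cells with SGC0946 than with SGC0649, by 0.41 (SE 0.0722, adjusted p = 0.000681).

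Of the other degradation genes, 10 of 23 were higher and 11 lower against naive cells, Vcp at 1.17 and Fam8a1 at -1.48 among them, where 42.6% of all genes were higher and 37.3% lower. The shares among these 23 lie near those of all genes. Between the sorts with SGC0649, 6 were higher and 5 lower. The other stress sensors and partners gave 6 of 13 higher and 4 lower, which is also near the shares of all genes. The COPII export genes gave 12 of 22 higher and 4 lower against naive cells, with a median of 0.54 against 0.09 over all genes. Cytosolic chaperones were read for comparison. They also gave 16 of 24 higher and 5 lower against naive cells, and 14 higher and 2 lower between the sorts with SGC0649. With SGC0946 in YFPpos cells 11 of the 24 were lower, among them Cct4 at -0.34, Hspd1 at -0.48 and Hsf1 at -0.46, while of the 32 ER genes 5 were higher and 2 lower. The median of these cytosolic chaperones was -0.21 there, against 0.06 for the ER genes, and no test of the difference between the lists was made.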

How the data were processed

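RNA sequencing libraries of sorted mouse CD4+ T cells were analysed from raw read counts by gene that the authors deposited for 14 libraries in 5 groups, and a deposited summary of read counts by assignment category gave the shares of unmapped reads. Per the submitters' processing notes the tools were featureCounts, edgeR and limma and the build was GRCm38. Counting on the reverse strand and the restriction to protein-coding genes are per the file headers and name. No source used here names the aligner, the annotation release or versions of the tools.

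From the counts, edgeR 4.0.16 in R 4.3.3 (filterByExpr by group, TMM, quasi-likelihood test, 1 coefficient per group over all 14 libraries, 7 comparisons, Benjamini-Hochberg adjustment over 12343 genes, threshold 0.05) gave all tests. The biological coefficient of variation was 9.12%. Totals of 14486577 to 31614057 counts set the counting precision. Gene positions and exon lengths came from GENCODE on GRCm38, which held 21781 of the 22048 IDs, and promoters from RefSeq. Alternatives were DESeq2 1.42.0, limma 3.58.1 (voom), other size factors, no filter, only the libraries compared, a replicate block and each library left out. Data were simulated for the sorts with SGC0649, for the compounds within each sort and for YFPneg SGC0649 against naive cells. On these data the test recovered 49% to 57% of changes of 1.5-fold and 74% to 78% of changes of 2-fold. Of its calls, 5.22% to 8.21% were false. Only 200 of 12081 to 12105 genes were changed there, against 1065 to 8518 genes called in those comparisons. These rates therefore need not hold for the tests above, and the interaction was not simulated.

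The 32 genes, the related lists and the markers were chosen with earlier results of these data known. Values in every library are given for Hspa5, Hsp90b1, Xbp1, Atf6, Ern1 and Eif2ak3 and for up to 3 called genes with the largest change per direction in each comparison. From each related list at most 4 genes with the smallest p per comparison are named. Ssr3 and Herpud1 are outside this rule and were added after their values were seen. Replicates of a group differed by more than counting noise.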

Additional observations from a re-analysis of the deposited data

How the results depend on the processing

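No direction of a called gene was reversed under any alternative. Genes lower in YFPpos than in YFPneg cells with SGC0946 numbered 0 in place of 1 with DESeq2 size factors, with library totals alone and with the DESeq2 test. Genes lower with SGC0946 in YFPpos cells numbered 1 in place of 2 with DESeq2 size factors, library totals alone, no filter, the DESeq2 test and only the libraries compared. With only the libraries compared, genes higher with SGC0946 numbered 11 in place of 5 in YFPpos cells and 0 in place of 2 in YFPneg cells. DESeq2 gave 1 higher interaction in place of 0. With 1 library left out, counts ran from 0 to 1 for lower in YFPpos with SGC0649, 0 to 1 for lower in YFPpos with SGC0946, 3 to 6 higher and 0 to 2 lower with SGC0946 in YFPpos cells, 0 to 2 higher in YFPneg cells and 0 to 1 higher interactions. YFPneg SGC0649 has then 1 library, which is assumed to vary like the other groups. Against naive cells the counts were 22 to 23 higher and 5 lower in YFPpos, and 20 higher and 4 to 6 lower in YFPneg cells with SGC0649.

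Sorts share sample numbers. The deviations of same-numbered libraries correlated at 0.147 and 0.0361 with SGC0649 and 0.111, 0.0784 and 0.0405 with SGC0946. These values are low but all above 0, and they do not settle whether the numbers pair libraries. The main fit treated the libraries as unpaired. With a replicate block, 21 genes were higher and 1 lower with SGC0649, and 23 higher and 1 lower with SGC0946. Dnajb9 (adjusted p = 0.1) and Calr (0.0615) lost their calls with SGC0649. With SGC0946 every library correlated best with its own number. With SGC0649 the YFPneg library of number 62 correlated more with number 63 (0.115) than with its own (0.0361). The deviations of the 2 YFPneg SGC0649 libraries are mirror images of each other, so this decides nothing about pairing.

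Over all genes, DESeq2 gave 121 higher and 180 lower interactions, no filter gave 57 higher, and only the libraries compared gave 16 and 40, against 32 and 110. With only the libraries compared, 2584 genes were higher with SGC0946 in YFPpos cells against 1490, and 161 higher and 38 lower in YFPneg cells against 616 and 449, where DESeq2 gave 703 lower. The cause of these differences was not tested. Depth limits Derl3 and Sec61g most, whose intervals were the widest.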
